A study of Homo sapiens with 6 samples.

Results

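The 9 genes described here encode claudins (CLDN1, CLDN3, CLDN4, CLDN7 and CLDN12), occludin (OCLN), the junction scaffold ZO-1 (TJP1) and 2 junctional adhesion molecules (F11R, also called JAM-A, and JAM3, also called JAM-C). They were chosen by gene symbol, with the on-dox against off-dox fold changes of these same tumours already known, so their values in that comparison are given as a description and support no inference about the group. All 9 symbols matched 1 row each among the 57773 genes of the count table, and all 9 were among the 21308 genes that passed the low-count filter. The samples are subcutaneous tumours of the human pancreatic ductal adenocarcinoma line PATU in nude mice. The cells of every tumour carry an inducible short hairpin RNA against ME3, a mitochondrial malic enzyme; 4 tumours were left off doxycycline and 2 were put on doxycycline (dox) to induce the hairpin. No tumour with a control hairpin was analysed here, so dox itself, hairpin induction and lower ME3 cannot be told apart.

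Tight junctions seal the space between neighbouring epithelial cells near their apical border. Claudins are tetraspan membrane proteins that polymerise into the junction strands, some as sealing claudins (CLDN1, CLDN3, CLDN4, CLDN7) and others, such as CLDN2 and CLDN15, as ion pores. Occludin and tricellulin (MARVELD2) are tetraspan proteins of a separate family, and junctional adhesion molecules are immunoglobulin-type adhesion proteins. ZO-1 anchors many of these proteins, though not every claudin, to actin from the cytoplasmic side. In carcinomas of the pancreas CLDN4 and CLDN18 are commonly abundant, whereas ZEB and SNAIL family repressors of epithelial genes bind E-boxes of the form CAGGTG.

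The start regions of CLDN1, the member with the largest difference between groups, and of OCLN and TJP1, the matched members whose windows hold CAGGTG, are shown as 250 bases ending just before the RefSeq gene start (build GRCh38.p14, 5' to 3' on the gene's strand, which for CLDN1 and TJP1 is the minus strand). The counts were made on hg19, so these positions are not those of the counted models. Capitals mark CAGGTG or GGGCGG (an SP1-type GC box) on either strand. The regions are chr3:190322447-190322696 for CLDN1, chr5:69492297-69492546 for OCLN and chr15:29969050-29969299 for TJP1.
CLDN1: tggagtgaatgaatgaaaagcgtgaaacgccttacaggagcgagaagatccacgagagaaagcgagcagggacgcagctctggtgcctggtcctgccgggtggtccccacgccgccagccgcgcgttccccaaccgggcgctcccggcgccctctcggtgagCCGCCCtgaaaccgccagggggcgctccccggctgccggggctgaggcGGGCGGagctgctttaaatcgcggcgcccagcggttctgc
OCLN: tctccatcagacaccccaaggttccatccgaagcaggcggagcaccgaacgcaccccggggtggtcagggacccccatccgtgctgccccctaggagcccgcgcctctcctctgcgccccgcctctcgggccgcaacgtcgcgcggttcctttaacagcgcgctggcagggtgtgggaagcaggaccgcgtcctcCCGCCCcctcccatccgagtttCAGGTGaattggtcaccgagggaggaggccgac
TJP1: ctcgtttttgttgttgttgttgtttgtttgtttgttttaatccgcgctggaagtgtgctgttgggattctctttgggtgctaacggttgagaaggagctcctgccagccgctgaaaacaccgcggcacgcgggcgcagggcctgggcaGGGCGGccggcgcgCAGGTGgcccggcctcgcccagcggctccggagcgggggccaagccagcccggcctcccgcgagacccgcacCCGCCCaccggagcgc

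The promoter table matched 7 of the 9 members. CAGGTG was found in 2 of these 7 windows and in 17.5% of the 35116 windows of all genes in the table. GGGCGG was found in 5 of the 7 and in 42.6% of all windows. The CLDN1 window holds 2 GC boxes, 28 CG dinucleotides and no E-box of any kind (CANNTG), which 61.8% of all windows hold. Neither TGANTCA, an AP-1 motif, nor GGAATG, a TEAD motif, was in the CLDN1 window; they were in 6.57% and 11.9% of all windows. CAGGTG is a special case of CANNTG, so these counts overlap. These matches describe letters in a window and say nothing of what binds there.

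The library totals were 23855338 to 26885699 counts, and all levels below are CPM, counts scaled to a common library total with TMM factors. ME3 was at 37.9 to 44.2 CPM in the 4 off-dox tumours and at 33.3 and 28.5 CPM in on-dox tumours 1 and 2, a log2 fold change of -0.41 (SE 0.12) that did not pass the test over all genes (edgeR quasi-likelihood, adjusted p = 0.148). On-dox tumour 1 stood apart in RNA composition: mRNAs of the mitochondrial genome summed to 5024 CPM there and to 2300 to 2712 CPM in the other 5 tumours, and the nuclear RNAs MALAT1 and NEAT1 to 38795 CPM against 14715 to 22881 CPM. Off-dox tumour 4 held skeletal muscle transcripts, with 10 muscle markers summing to 807 CPM against 2.73 to 82.2 CPM in the other 5. The handling of mouse reads is not given in the sources used here, so counts can include host transcripts. In these bulk tumours, fewer cells of a type and less RNA per cell cannot be told apart.

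The epithelial label was checked on 10 epithelial markers. KRT8 was at 939 ± 78.5 CPM (SD, n = 4) and KRT18 at 472 ± 33.6 CPM off dox, the keratins of simple epithelia. CDH1, the E-cadherin gene, was at 11.9 ± 3.16 CPM. EPCAM was at 27.7 ± 2.23 CPM, and MUC1, a mucin gene of ductal epithelium, at 12.4 ± 5.49 CPM. The ductal keratin gene KRT19 had 1 count over all 6 tumours, and GRHL2, an activator of junction genes, had 0, which allows up to 0.114 to 0.123 CPM per tumour (3 counts, counting error only). KRT7 was at 0.870 ± 0.552 CPM and the epithelial splicing factor gene ESRP1 at 1.06 ± 0.358 CPM, and the epithelial transcription factor gene ELF3 was at 0.574 ± 0.0949 CPM. The repressor genes ZEB1 and ZEB2 were at 56.2 ± 3.81 and 57.0 ± 14.5 CPM, and SNAI1 and SNAI2 at 0.977 ± 0.463 and 0.664 ± 0.445 CPM. The tumours thus held KRT8, KRT18, EPCAM, MUC1 and CDH1 transcripts, while the ductal keratin genes KRT19 and KRT7 were at or near 0.

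Off dox, CLDN1 and TJP1 were the most abundant members per transcript length. Per kilobase of the principal GENCODE transcript, CLDN1 was at 46.5 ± 6.56 CPM per kb (SD, n = 4), TJP1 at 26.1 ± 1.75, CLDN12 at 14.6 ± 0.859, OCLN at 11.1 ± 1.27, JAM3 at 9.10 ± 0.291 and F11R at 4.49 ± 0.332. These 6 did not overlap between neighbours in that order. The sealing claudins CLDN7 (1.02 ± 0.231 CPM per kb), CLDN3 (0.789 ± 0.248) and CLDN4 (0.390 ± 0.0682) formed a much lower group, and the ranges of CLDN7 (0.723 to 1.23) and CLDN3 (0.509 to 1.09) overlapped. With the union of all annotated exons as the length, OCLN (10.6 CPM per kb) stood above CLDN12 (7.75) and CLDN3 (0.789) above CLDN7 (0.634), so the order within those pairs depended on the transcript model. Which gene models the authors counted is not given in the sources used here.

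CLDN1, a sealing claudin, had the largest difference between the groups among the 9 members. It was at 138, 193, 159 and 159 CPM in off-dox tumours 1 to 4 and at 423 and 347 CPM in on-dox tumours 1 and 2. Both on-dox tumours lay far above the highest off-dox tumour. The raw counts were 3578 to 4756 off dox and 10907 and 8577 on dox, so counting error is small beside this gap. CLDN1 rose 2.38-fold, a log2 fold change of 1.25 (SE 0.13, 95% interval 0.96 to 1.54; adjusted p = 0.00329 over all genes by edgeR's quasi-likelihood test). Leaving out on-dox tumour 1, the tumour that stood apart in RNA composition, gave a log2 fold change of 1.10, and leaving out on-dox tumour 2 gave 1.38.

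**Figure D1:**
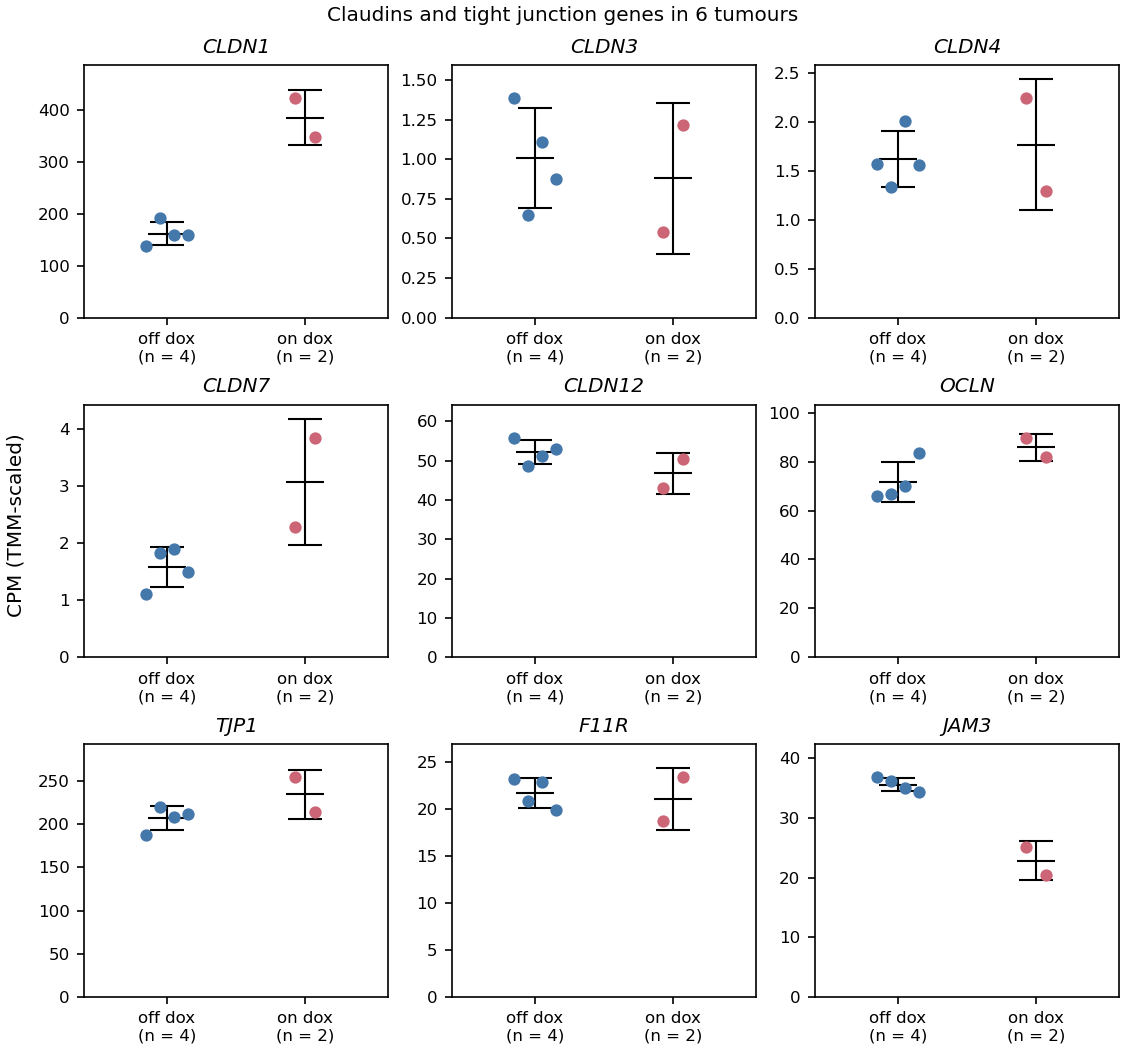
CPM of each of the 9 genes in the 4 off-dox and 2 on-dox tumours; points are tumours, the long dash is the mean and the bar the SD, and each panel has its own axis from 0. CLDN1 at 347 and 423 CPM on dox sits above all off-dox tumours, JAM3 at 20.5 and 25.2 CPM sits below them, CLDN7 is higher at a low level, and the other 6 genes overlap between the groups.

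CLDN1 made up a larger share of the summed level of 21 listed claudin genes on dox. The summed level of the other 20 stayed within its off-dox range. Claudin genes outside the lists used here were not summed. Over the 21 listed genes, the summed level was 66.8 to 82.6 CPM per kb off dox and 149 and 127 CPM per kb in on-dox tumours 1 and 2. CLDN1 made up 62.5 ± 3.30% of that sum off dox (SD, n = 4) and 80.0 ± 2.22% on dox (SD, n = 2). The other 20 claudins together were at 27.2 to 28.3 CPM per kb off dox and at 27.4 and 27.5 CPM per kb on dox. With exon-union lengths the same sum was 18.1 to 19.6 off dox and 18.9 and 18.3 on dox. The ratio of CLDN1 to TJP1 in the same tumour, from CPM, was 0.733 to 0.875 off dox and 1.66 and 1.62 on dox, and that of CLDN1 to OCLN was 1.90 to 2.89 and 4.70 and 4.24. These ratios do not depend on library scaling and the groups overlapped in neither.

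**Figure D2:**
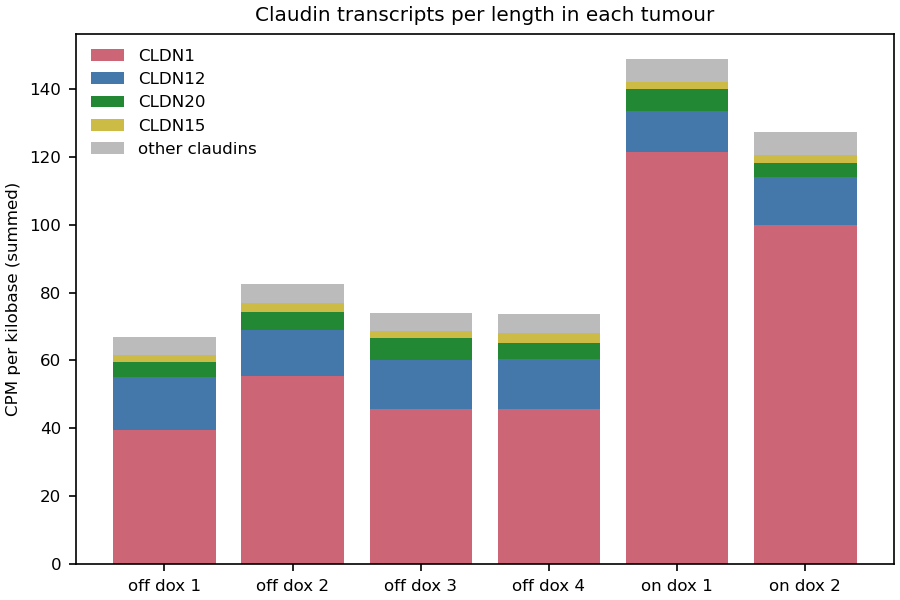
Summed CPM per kilobase of principal transcript for 21 claudin genes in each tumour, split into CLDN1, CLDN12, CLDN20, CLDN15 and the rest. The red CLDN1 segment accounts for the taller bars of the on-dox tumours (149 and 127 CPM per kb against 66.8 to 82.6), while the segments above it add up to 27.2 to 28.3 CPM per kb in all 6.

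Among the other sealing claudins, CLDN7 was at 1.12, 1.82, 1.89 and 1.49 CPM off dox and at 2.29 and 3.85 CPM on dox. Both on-dox tumours lay above the off-dox range, but on-dox tumour 1 only just, with counts of 59 there against 29 to 46 off dox. The exact Poisson 95% interval of on-dox tumour 1 (1.74 to 2.95 CPM) included the highest off-dox value, whereas that of on-dox tumour 2 (3.11 to 4.70 CPM) did not. The log2 fold change was 0.96 (SE 0.32), which did not pass over all genes (adjusted p = 0.208). Leaving out on-dox tumour 2 gave 0.53 and leaving out on-dox tumour 1 gave 1.29. The ELP5 gene overlaps CLDN7 on the opposite strand and the strand setting is not given in the sources used here. ELP5 was at 23.5 to 27.4 CPM off dox and at 18.2 and 25.2 CPM in on-dox tumours 1 and 2. How reads in the shared exons were assigned was not tested.

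CLDN3 and CLDN4, neighbouring genes and receptors of the Clostridium perfringens enterotoxin, were barely detected. CLDN3 had 14 to 36 counts per tumour, at 1.38, 0.649, 1.11 and 0.877 CPM off dox and 0.542 and 1.22 CPM on dox. CLDN4 had 32 to 58 counts, at 1.58, 1.34, 2.02 and 1.56 CPM off dox and 2.25 and 1.30 CPM on dox. For CLDN3, on-dox tumour 1 lay below the off-dox range and on-dox tumour 2 inside it; for CLDN4, on-dox tumour 1 lay above the range and on-dox tumour 2 just below it. The log2 fold changes were -0.20 (95% interval -1.20 to 0.80) for CLDN3 and 0.13 (-0.61 to 0.86) for CLDN4, intervals that hold both a fall and a rise, so a difference was not detectable at this depth. Both changed sign without on-dox tumour 1, to 0.27 and -0.32.

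CLDN12, a claudin that lacks the PDZ-binding tail most claudins use to reach ZO-1, was at 55.9, 48.6, 51.3 and 53.1 CPM off dox and at 43.2 and 50.4 CPM on dox. On-dox tumour 2 lay inside the off-dox range. Its log2 fold change was -0.16 (95% interval -0.40 to 0.08). In the GENCODE annotation its exons overlap those of GTPBP10 and CDK14 on the same strand, which were at log2 fold changes of 0.13 and -0.06.

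OCLN was at 65.9, 66.8, 70.0 and 83.5 CPM off dox and at 89.8 and 82.0 CPM on dox. Off-dox tumour 4, the one with muscle transcripts, lay between the on-dox tumours, so the groups overlapped. The log2 fold change was 0.26 (95% interval 0.02 to 0.51; adjusted p = 0.321 over all genes). A partial copy, OCLNP1, took 2 to 15 counts per tumour against 1647 to 2319 for OCLN; reads shared by both would be uncertain.

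TJP1 was at 188, 220, 209 and 212 CPM off dox and at 255 and 215 CPM on dox. Only on-dox tumour 1 lay above the off-dox range. Its log2 fold change was 0.18 (95% interval -0.05 to 0.41), and 0.05 without on-dox tumour 1. The intronic transcript AC022613.3 of the same strand had 128 counts in on-dox tumour 1 and 51 to 80 in the other tumours, beside the higher MALAT1 and NEAT1 of that tumour; the part of RNA composition in the TJP1 value was not tested.

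The 2 junctional adhesion molecules differed from each other. JAM3, which also serves endothelial cells and leukocyte adhesion, was at 36.9, 36.2, 35.1 and 34.3 CPM off dox and at 25.2 and 20.5 CPM on dox. The off-dox tumours lay close together and both on-dox tumours below all of them. JAM3 fell by 0.64 on the log2 scale (SE 0.12, 95% interval -0.91 to -0.37; adjusted p = 0.0377 over all genes by edgeR's quasi-likelihood test). The call was close to the threshold and was lost in 5 of 6 fits without 1 tumour, with adjusted p of 0.0405 to 0.111 over the 6 fits and log2 fold changes of -0.79 to -0.50. F11R was at 23.2, 20.8, 22.9 and 19.9 CPM off dox and at 18.8 and 23.4 CPM on dox, spanning the off-dox range on both sides, with a log2 fold change of -0.04 (95% interval -0.34 to 0.25). The ratio of JAM3 to F11R in the same tumour was 1.53 to 1.74 off dox and 1.34 and 0.875 on dox.

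The JAM3 exons overlap those of NCAPD3 on the opposite strand in the GENCODE annotation. NCAPD3, a condensin subunit gene, was at 134 to 165 CPM off dox and at 192 and 179 CPM on dox, a log2 fold change of 0.33 (adjusted p = 0.168). It thus moved opposite to JAM3, and how reads in the shared exons were assigned was not tested. The 10 endothelial markers summed to 37.5 to 47.0 CPM off dox and to 54.2 and 50.7 CPM in on-dox tumours 1 and 2. Most of that sum came from ENG (13.9 ± 4.91 CPM off dox against 22.4 ± 5.90 CPM on dox) and EGFL7 (15.1 ± 1.31 against 17.8 ± 3.28 CPM). Of the 9 tested markers, 7 had a log2 fold change below 0, and 0 were called. TEK, the angiopoietin receptor gene, was at 0.763 to 1.01 CPM off dox and at 0.349 and 0.486 CPM on dox (115 counts in all). CDH5, the VE-cadherin gene, was at 0.346 to 1.11 CPM off dox (80 counts in all). Its values in on-dox tumours 1 and 2 were 0.310 CPM and 0. In these 2 of the 9 tested markers, each on-dox value was under the off-dox range. The same held for 11.5% of all tested genes. The groups overlapped in the other tested markers, ENG and EGFL7 among them. EMCN had 1 count over all tumours. The 13 fibroblast markers summed to 199 to 935 CPM off dox and 175 and 385 CPM on dox, with LUM at 3 counts. The 9 myeloid markers summed to 20.7 to 42.8 CPM and 32.4 and 40.8 CPM, with TYROBP at 0. The part of host cells in the JAM3 value was not tested.

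Of the 9 members, 1 was called higher and 1 lower, 2 of 9, beside 1.06% of all 21308 tested genes called in either direction (0.465% higher and 0.591% lower). Both on-dox tumours lay above all off-dox tumours in CLDN1 and CLDN7, and below them in JAM3, beside 11.5% of all tested genes above and 11.5% below. Because the members were chosen with this comparison known, nothing is read from these shares. The median log2 fold change of the 9 was 0.13, beside -0.0031 over all tested genes.

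In 3 lists of other tight junction genes, none of the 47 tested genes passed over all genes by edgeR, 11 had an unadjusted p under 0.05, DESeq2 called 3 and limma voom 0; of all 21308 tested genes, 14.3% had an unadjusted p under 0.05 and voom called 0.864%. DESeq2 called 3.71% of the 18679 genes to which it gave an adjusted p. Their median log2 fold change was -0.05, with 23 above 0 and 24 below. Tricellulin (MARVELD2), the occludin relative that seals tricellular corners and lies next to OCLN, was at 23.5 ± 2.09 CPM off dox against 24.3 ± 0.912 CPM on dox. Its partner LSR was at 70.4 ± 3.94 and 63.5 ± 1.39 CPM. ILDR2, of the LSR family, was at 0.770 to 1.08 CPM off dox and at 0.194 and 0.122 CPM on dox, from 100 counts in all. Its log2 fold change of -2.49 (SE 0.52) missed the threshold (adjusted p = 0.0525) and passed it in 4 of the 14 alternative fits.

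The plaque protein gene CGN was at 10.3 ± 1.14 CPM off dox (SD, n = 4) against 12.5 ± 1.42 CPM on dox (SD, n = 2), with an adjusted p of 0.478 by edgeR. The polarity gene PARD3B was at 12.1 to 18.2 CPM off dox and at 28.2 and 21.3 CPM on dox (log2 change 0.66, adjusted p = 0.111). EMP1 and EMP2, tetraspan proteins of the wider claudin superfamily, differed by -0.97 and -0.49 on the log2 scale (adjusted p = 0.288 and 0.190). The coxsackievirus and adenovirus receptor gene CXADR was at 28.8 to 41.1 CPM off dox and at 46.1 and 48.9 CPM on dox (log2 change 0.33, adjusted p = 0.334).

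Of 18 other claudin and claudin-domain genes, 9 had too few counts to be tested, 3 of them with none. CLDN18, the gastric claudin, was at 4.05 ± 0.456 CPM off dox against 3.84 ± 1.19 CPM on dox, the pore claudin CLDN15 at 5.18 ± 0.861 and 4.86 ± 0.238, and CLDN20 at 6.34 ± 1.12 and 6.41 ± 1.79. CLDN2, the cation pore, had 13 counts over all tumours. CLDN5, the endothelial claudin, was at 0.343 to 0.692 CPM off dox and 0.542 and 0.243 CPM on dox.

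CLDN16, the renal magnesium-pore claudin and the next gene to CLDN1 in RefSeq order, was at 0.115 to 0.487 CPM off dox and at 0.930 and 1.499 CPM on dox. Both on-dox tumours lay above the off-dox range at this low level of 87 counts in all, and the log2 change was 2.22 (SE 0.57; adjusted p = 0.101). The next neighbours were looked at after the CLDN16 values were seen. On the side of CLDN16, P3H2 was at 2.47 to 2.88 CPM off dox and 3.02 and 5.79 CPM on dox (log2 change 0.75, adjusted p = 0.260). On the other side, IL1RAP, the interleukin-1 receptor accessory protein gene, was at 114 to 133 CPM off dox and 190 and 160 CPM on dox (log2 change 0.50, SE 0.11, adjusted p = 0.0592). TP63, TMEM207 and GMNC, the others of the 3 nearest on each side, were at or below 0.122 CPM in each tumour. In CLDN16, P3H2 and IL1RAP both on-dox tumours lay above all off-dox tumours, as in 11.5% of all tested genes. In P3H2 on-dox tumour 1 did so only just, at 3.02 against 2.88 CPM. None of the 3 passed over all genes, and a link between these neighbours and CLDN1 was not tested.

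**Figure D3:**
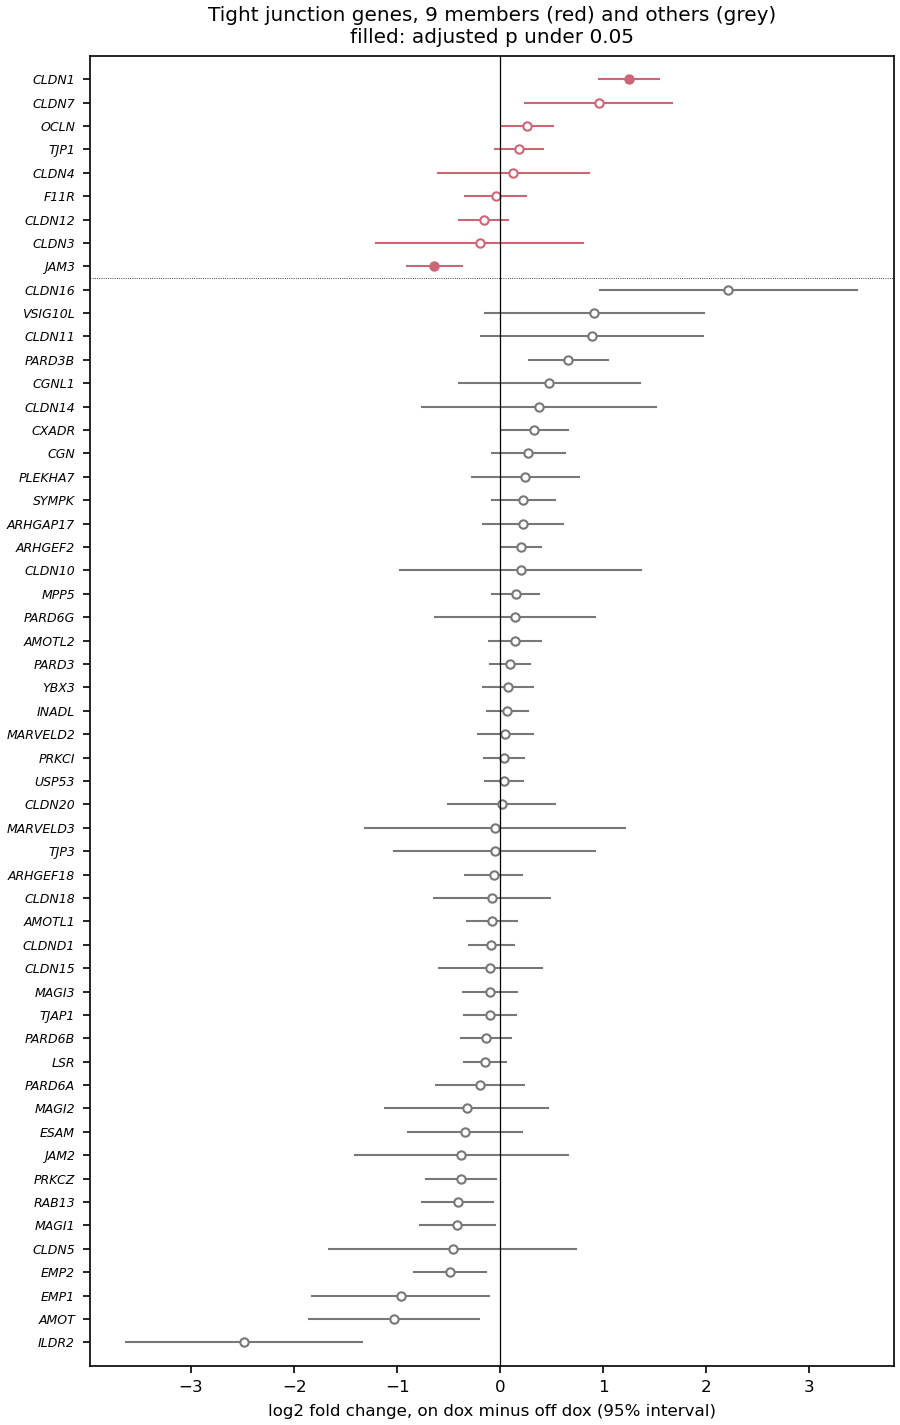
Log2 fold change on dox minus off dox with its 95% interval for the 9 members (red, above the dotted line) and the other tested tight junction genes reported here (grey). Filled points, CLDN1 (1.25) and JAM3 (-0.64), have an adjusted p under 0.05 over all genes; none of the grey points is filled, and ILDR2 (-2.49) and CLDN16 (2.22) lie farthest from 0 with wide intervals.

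Among binding partners and proteases of claudins, EPCAM, which binds CLDN7, was at 24.7 to 30.1 CPM off dox and at 33.4 and 39.3 CPM on dox (log2 change 0.39, adjusted p = 0.168). The sheddases ADAM10 and ADAM17 had log2 fold changes of 0.14 and 0.03, and the protease inhibitor gene SPINT2 of -0.21.

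Neighbouring junction types and regulators held no called gene by edgeR. Of 11 adherens junction genes, 3 had an unadjusted p under 0.05 (14.3% of all tested genes did), DESeq2 called 1 (3.71% of all genes with an adjusted p) and voom 0 (0.864%). The nectin gene PVRL3 was at 25.9 to 35.0 CPM off dox and at 20.4 and 17.5 CPM on dox (log2 change -0.62, adjusted p = 0.0799), and MLLT4, the afadin gene, at 171 to 187 and at 244 and 211 CPM (0.36, adjusted p = 0.112). CDH1 was at 12.2 ± 2.14 CPM on dox, with both on-dox tumours inside the off-dox range (log2 fold change 0.04). Of 11 desmosome genes the counts were again 3, 1 and 0, beside the same shares of all genes; the periplakin gene PPL had a log2 fold change of 0.44 and the desmocollin gene DSC3 of 0.35 (adjusted p = 0.0854 and 0.106). Of 16 tested regulators, 0 had an unadjusted p under 0.05, and DESeq2 and voom called 0. ZEB1 was at 59.5 ± 0.640 CPM on dox (log2 change 0.08, 95% interval -0.14 to 0.30) and ZEB2 at 52.3 ± 3.53 CPM (-0.12). The epithelial markers summed to 1382 to 1622 CPM off dox and 1129 and 1294 CPM on dox, mostly KRT8 and KRT18 (two-sided exact permutation p = 0.0667, the smallest that 4 against 2 tumours can give).

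The pattern of CLDN1 over the 6 tumours was compared with those of 10252 other genes whose mean log2 CPM reached 3. The 4 most similar were SLC22A5, the carnitine transporter gene (Pearson r of log2 CPM 0.999), KIAA0226, which encodes the autophagy regulator Rubicon (0.995), SLC12A7, a potassium-chloride cotransporter gene (0.995), and RALGAPB (0.994). With so many genes over only 6 tumours in 2 groups, such values are a description. SLC22A5 was at 15.7 to 18.9 CPM off dox and at 31.5 and 27.3 CPM on dox, with on-dox tumour 1 above on-dox tumour 2 and off-dox tumour 2 the highest of its group, as in CLDN1. Among the members, r with CLDN1 was 0.81 for TJP1, 0.80 for CLDN7, 0.73 for OCLN and 0.18 for CLDN4. It was -0.36 for F11R, -0.48 for CLDN3, -0.82 for CLDN12 and -0.89 for JAM3. These values include the difference between the groups and are likewise a description.

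**Figure D4:**
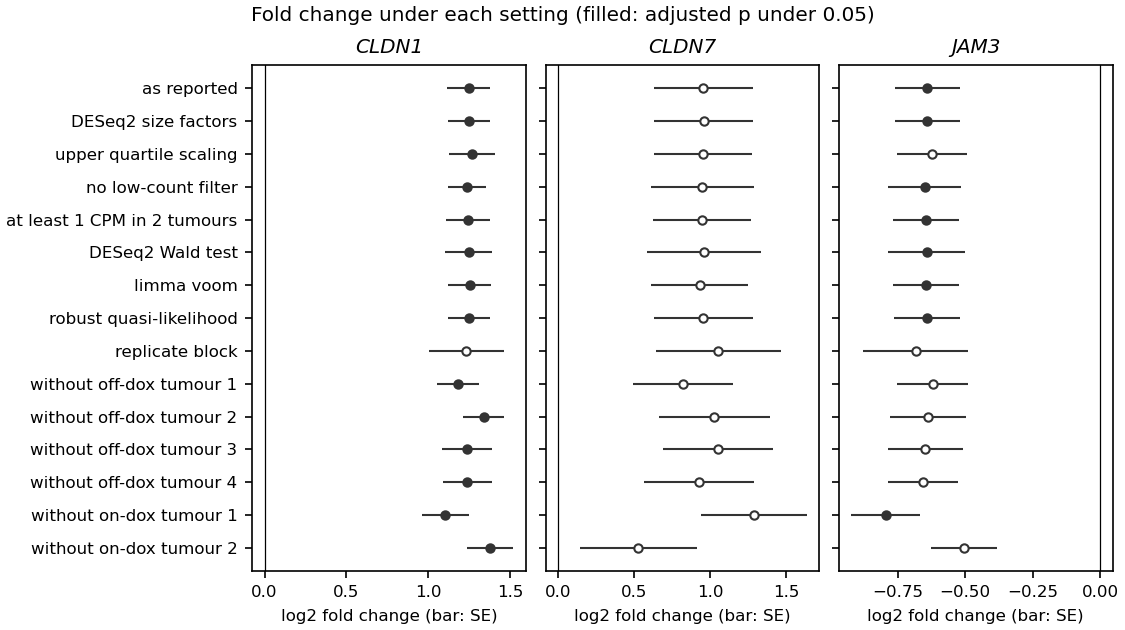
Log2 fold change (bar, SE) of CLDN1, CLDN7 and JAM3 as reported and under 14 alternative settings; filled points have an adjusted p under 0.05. CLDN1 stays between 1.10 and 1.38 and is filled everywhere but with the replicate block, CLDN7 is filled nowhere, and JAM3 (-0.79 to -0.50) is open with upper quartile scaling, with the replicate block and without most single tumours.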

How the data were processed

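Tumour RNA, taken up in Trizol, was made into libraries by standard Illumina methods, per the labels' protocols. The authors deposited whole-number counts per gene; STAR, HTSeq, limma and hg19 are named in the submitters' processing notes, with no role or version; annotation, strand setting and the treatment of mouse reads: not given in the sources used here. From 57798 lines, 25 with a repeated identifier were removed. Missing or date-like symbols were filled by identifier from GENCODE 29 (GRCh38), used only for names, lengths and gene overlaps. Counts were tested in R 4.3.3 with edgeR 4.0.16 (TMM, filterByExpr, quasi-likelihood F test, Benjamini-Hochberg over 21308 genes, threshold 0.05; log2 fold changes on dox minus off dox), and the test was checked on simulated data. Intervals are 95%. CPM values use TMM-scaled library sizes; SDs are over tumours of 1 cell line, so p-values measure only the spread between these tumours, and the number of libraries limits precision. Intervals on counts cover counting error only. DESeq2 1.42.0, limma 3.58.1 (voom), other scalings and filters, a replicate block and leaving out each tumour were the alternatives. The members and gene lists were chosen with earlier results of these data known. The genes named are the members, ME3, called genes and up to 4 with the smallest p in each list (some not printed), and the 4 most like CLDN1; CLDN15, CLDN18, CLDN20, CLDN2, CLDN5, MARVELD2, LSR, CGN, markers, overlapping and neighbouring genes were named for their role or position. PECAM1 was not analysed here, and some genes of the lists are not reported here.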

Additional observations from a re-analysis of the deposited data

Results flagged for a closer look

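Over 78 sets of 4 off-dox values (genes and summed marker lists), a single tumour stood far from the other 3 in 9; chance alone flags about 1 in 20 such sets. None of the 9 junction members was among them. Off-dox tumour 4 stood high in skeletal muscle transcripts, at 807 CPM for the summed list where the other 3 had 2.73 to 82.2 CPM, with ACTN3 at 36.3 CPM, MYL1 at 15.4 CPM and MYLPF at 10.7 CPM; it was low in MMP9, at 0.305 CPM against 1.69 to 1.96 CPM. Off-dox tumour 3 stood high in adipocyte markers, at 14.9 CPM against 2.62 to 3.05 CPM, with FABP4 at 5.02 CPM and PLIN1 at 4.40 CPM. CXADR, the junctional receptor gene, was low in off-dox tumour 1, at 28.8 CPM where the other 3 had 39.9 to 41.1 CPM.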

How the results depend on the processing

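CLDN1 kept its direction and its call in 13 of 14 alternatives; with a replicate block its log2 fold change was 1.23 (adjusted p = 0.0608). JAM3 kept its direction in all 14 but lost its call with upper quartile scaling (-0.62, adjusted p = 0.0541), with the replicate block (-0.68, adjusted p = 0.272) and without single tumours, where it ranged from -0.79 to -0.50. The number of members called was 1 with upper quartile scaling, 0 with the replicate block and 1 to 2 without single tumours. The number of other junction genes called, 0 as reported, was 6 with no low-count filter, 5 with DESeq2, 1 with a filter of at least 1 CPM in 2 tumours, 1 with robust fitting, and 0 to 1 without single tumours. The number of all genes called, 225 as reported, was 770 with no low-count filter, 693 with DESeq2, 53 with the replicate block and 72 to 562 without single tumours. The block uses a number shared by tumours 1 and 2 of each group. The difference of tumour 1 minus tumour 2 was uncorrelated between groups (r = -0.02 over 21308 genes). With only 1 such difference per group, this cannot settle whether the shared number marks a pairing. Signs turned without single tumours for CLDN3 (-0.89 to 0.27), CLDN4 (-0.32 to 0.46), F11R (-0.22 to 0.11), CLDND1 (-0.22 to 0.040), NEAT1 (-0.069 to 1.05) and PPARG (-0.29 to 0.41, and -0.11 without off-dox tumour 1), and for PLIN1 with the block (0.16). Of these, NEAT1 alone was called in such a fit, without on-dox tumour 2 (adjusted p = 0.0333). The causes were not tested. CLDN3, CLDN4 and CLDN7 rest on 14 to 95 counts per tumour.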
